A study of Gallus gallus with 3 samples.

Results

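The miR-130, miR-301 and miR-454 family was followed in the leg muscle of dwarf and normal recessive White Rock chickens, in embryos that were 14 days old. Its members were taken by name, as gga-miR-130a, gga-miR-130b, gga-miR-130c, gga-miR-301 and gga-miR-454, which are 5 of the 542 microRNAs (miRNAs) on the array. All 5 were found, each as 6 spots per array. By the study's methods, the dwarf strain carries a deletion at the end of GHR, the gene of the growth hormone receptor, and its birds weigh less than those of the normal strain. Both strains were bred over several generations, so other differences between them cannot be told apart from that deletion. All embryos were female according to the study's methods, and skin and bone were removed before RNA extraction. On each of 3 two-colour arrays 1 dwarf pool was set against 1 normal pool, and every pool combined the total RNA of 3 embryos. Cy5 marked dwarf RNA on arrays 1 and 3, while on array 2 dwarf RNA had Cy3, and normal RNA had the other dye each time. The array was the replicate (n = 3), so p-values measure the spread between pools and hybridisations, and the number of arrays limits the precision of every value.

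A mature miRNA is held by an Argonaute protein and finds its messenger RNAs mainly through the seed, the bases 2 to 8 counted from its 5′ end. miRNAs with one seed can therefore act on overlapping sets of targets, while the bases after the seed differ between them. In mammals this family has been studied in blood vessel growth, fat cell formation and tumours, and human miR-130 is known to repress PPARG, a regulator of fat cell formation. Among other comparisons, the study set miRNAs of dwarf embryos against those of normal embryos before hatching, when leg muscle fibres are being formed. That comparison is given here for this family. The study also lists miR-454 as lower in older birds than in embryos, in both strains. For miR-130b it lists this in the dwarf strain. The older birds are not on the arrays used here.

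The sequences that the array was designed to detect are shown to make plain what the members share and where they part. They were read from the array files, and the capitals mark the seed.

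gga-miR-130a: cAGUGCAAuauuaaaagggcau

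gga-miR-130b: cAGUGCAAuaaugaaagggcgu

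gga-miR-130c: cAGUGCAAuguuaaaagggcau

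gga-miR-301: cAGUGCAAuaauauugucaaagcau

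gga-miR-454: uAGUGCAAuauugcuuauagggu

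gga-miR-301b-3p: cAGUGCAAuaguauugucaaagcau

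The last of these is not in the named family, but it was the only other one of the 542 array sequences with the seed AGUGCAA at bases 2 to 8. No array sequence held these 7 bases at another position. gga-miR-130a and gga-miR-130c have 22 bases each and differ at 1 of them, A10G, counted from the 5′ end with the base of gga-miR-130a first. gga-miR-130b differs from gga-miR-130a at 3 bases, U11A, A13G and A21G. gga-miR-301 and gga-miR-301b-3p have 25 bases and also differ at 1, A11G with the base of gga-miR-301 first. gga-miR-454 has 23 bases and is the only one of the 6 that starts with U in place of C. Spots for sequences that differ at 1 base or a few may share signal, and how far they did was not tested. The values of miR-130a and miR-130c are to be read with that limit. It also covers signal shared with the much brighter miR-130b, which differs from miR-130a at 3 bases and from miR-130c at 4.

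In the GRCg7b gene table, which was used for names and order only, MIR130B, MIR454, MIR301A and MIR130A follow each other directly on one chromosome. MIR301B and MIR130C are neighbours on another chromosome, and both lie inside SKA2P1. gga-miR-301 matches both MIR301A and MIR301B through the synonyms of that table, so its place was not settled. The other 4 members matched 1 entry each. gga-miR-301b-3p matched 2 and was placed at MIR301B by its name.

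The 5 members ran from bright to not detected, and the ends of their order held in both strains. gga-miR-130b was the brightest member in 6 of 6 pools, and gga-miR-454 came next in 6 of 6 pools, while gga-miR-301 was the dimmest in 6 of 6. Signals are given as the mean of 6 spots minus the median empty spot of that channel, in intensity units, and a signal over 32 was taken as detected, the limit used in the study. Brightness depends on how well a probe binds as well as on the amount of RNA, so the order of the probes is an order of spots and not of molecules.

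gga-miR-130b read 3786, 6199 and 5196 in dwarf pools, in the order of arrays 1 to 3, against 5230, 3679 and 11539 in the normal pools. These signals ranked 16, 21 and 24 among the 542 miRNAs in the dwarf pools and 24, 21 and 25 in the normal pools. The ranges of the strains overlapped, and the highest value was that of the normal pool of array 3.

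gga-miR-454 had a signal of 1672, 3933 and 3470 in the dwarf pools, against 2175, 1827 and 9210 in the normal pools. Its rank was 31, 31 and 30 in the dwarf pools and 39, 31 and 31 in the normal pools. The ranges overlapped here as well. miR-130b and miR-454 lie side by side in the gene table, and both were over the limit in all 6 pools.

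gga-miR-130a had a signal of 140.1, 89.9 and 120.4 in the dwarf pools, against 271, 17.1 and 759 in the normal pools. gga-miR-130c, which differs from it by 1 base, had a signal of 103, 103.9 and 148 in the dwarf pools, against 226, 27.6 and 696 in the normal pools. Both were therefore detected in 3 of 3 dwarf pools and in 2 of 3 normal pools, and the normal pool of array 2 was the exception for each. That channel was dim for the whole array. Its median signal over the tested miRNAs was 181.8, against a range of 301 to 2600.1 in the other 5 channels. The ranks of miR-130a were 81, 94 and 95 in dwarf pools and 86, 101 and 84 in normal pools, so its rank in the dim channel was the lowest of the 6. miR-130a was brighter than miR-130c in 3 pools and dimmer in 3, so their order was not settled.

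gga-miR-301 was not detected in any of the 6 pools. Its signal was -7.5, 5.3 and -6.3 in the dwarf pools, against -13.5, -0.13 and -14.2 in the normal pools. In each channel this lay between the 5th and the 95th percentile of the single empty spots, which vary more than a mean of 6 spots. The narrowest such range was -2.37 to 2.91, in the normal pool of array 2, and the widest was -39.9 to 49.4, in the normal pool of array 1. A member at background gives no ratio between strains, and its amount is limited only by what the array could show. Its target sequence has 32% G and C, the lowest share of the 6 sequences, against 45.5% in miR-130b and 34.8% in miR-454. Whether base composition plays a part in its signal was not tested.

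gga-miR-301b-3p, with the same seed, was near the limit. It had a signal of 17.8, 19.4 and 20.2 in the dwarf pools, against 45.3, 3.53 and 88.0 in the normal pools. By the study's limit it was detected in 0 of 3 dwarf pools and 2 of 3 normal pools. The Cy3 channel was the one over the limit on arrays 1 and 3. The empty spots gave another split, by array and not by strain. On array 1 both pools lay under the 95th percentile of the empty spots, which was 19.2 for dwarf and 49.4 for normal. On array 2 both lay above it, where it was 11.9 for dwarf and 2.91 for normal. Both also lay above it on array 3, where it was 9.35 for dwarf. These percentiles are of single empty spots, whereas a signal is a mean of 6 spots, which varies less. Lying just under them on array 1 therefore does not place miR-301b-3p at background there. Detection of miR-301b-3p in a strain thus depended on the limit used. The opposite strands on the array, gga-miR-130c*, gga-miR-454* and gga-miR-301b-5p, were over 32 in none of the 6 pools. For miR-130c and miR-454, detection was thus limited to the strand that carries the seed.

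**Figure D1:**
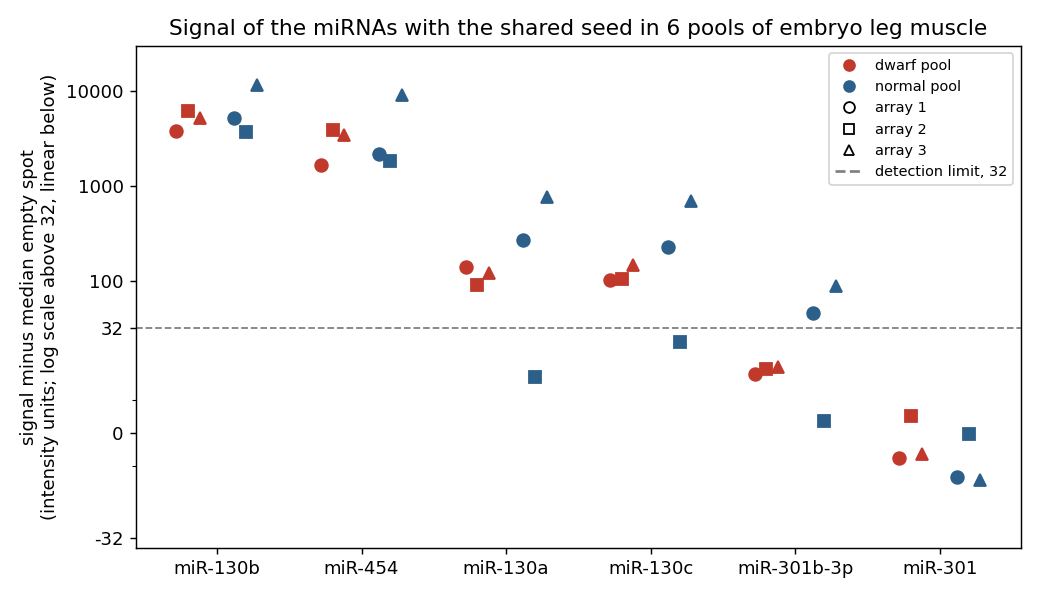
Signal minus the median empty spot (intensity units, log scale above 32 and linear below) of the miRNAs with the seed AGUGCAA, in dwarf pools (red, left) and normal pools (blue, right) of arrays 1 to 3, each point being the mean of 6 spots. gga-miR-130b and gga-miR-454 lie at 1672 or higher in all 6 pools, while gga-miR-301 lies at the level of empty spots.

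Before normalisation the difference within an array followed the dye. The Cy5 signal was below the Cy3 signal for each of the 4 detected members on each of the 3 arrays, with log2 values of Cy5 over Cy3 from -0.38 for miR-454 on array 1 to -2.66 for miR-130a on array 3. Strain ratios were therefore taken after loess within each array. They are given as dwarf over normal on the log2 scale, whereas the sample titles write normal over dwarf. miRNAs whose mean signal over the 6 channels was over 32 were tested, which were 127 of 542, with 4 of the 5 members among them. gga-miR-301 did not pass. An offset of 50 was added to all intensities in the background step.

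No member differed between the strains beyond the spread between arrays. limma called 0 of the 4 tested members at an adjusted p of 0.05, where it called 0 of the 127 tested miRNAs, or 0%. At an unadjusted p under 0.05 it again held 0 of the 4 members, against 14 of 127 or 11% of all tested miRNAs. The methods' t-test did not call a member either. It held 0 of the 4 at its stated threshold of 0.01, against 1 of 127 tested miRNAs. After adjustment it held 0 of the 4 and 0 of the 127. The intervals below show how large a difference these 3 arrays leave possible.

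The ratio of gga-miR-454 was 0.59, 0.13 and -0.15 on arrays 1, 2 and 3. Its mean was 0.19 (SE 0.20, limma adjusted p 0.824, n = 3), a fold of 1.14 with a 95% interval of 0.777 to 1.67. Its normalised signal, which includes the offset, was 3287 ± 248 (SD, n = 3) in dwarf pools and 2972 ± 868 (SD, n = 3) in normal pools. The dwarf pool was the higher one on 2 of 3 arrays, and without array 1 the mean ratio was -0.013.

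For gga-miR-130b the ratio was 0.44, -0.13 and 0.03, with a mean of 0.11 (SE 0.17, limma adjusted p 0.942, n = 3). This is a fold of 1.08 with a 95% interval of 0.776 to 1.5. The normalised signal was 5739 ± 1055 (SD, n = 3) in dwarf pools and 5279 ± 614 (SD, n = 3) in normal pools. Its largest ratio also came from array 1, and without that array the mean was -0.052.

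The dim pair had its largest ratios on array 3, with the opposite sign. The ratio of gga-miR-130a was 0.18, 0.18 and -0.61, with a mean of -0.08 (SE 0.22, limma adjusted p 0.973, n = 3) and a 95% interval of 0.611 to 1.46 as a fold. Its normalised signal was 221 ± 54.9 (SD, n = 3) in dwarf pools and 235.5 ± 63.1 (SD, n = 3) in normal pools. Without array 3 its mean ratio was 0.18.

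The ratio of gga-miR-130c was 0.08, 0.05 and -0.30, with a mean of -0.05 (SE 0.15, limma adjusted p 0.973, n = 3) and a 95% interval of 0.724 to 1.28 as a fold. Its normalised signal was 222.5 ± 15.5 (SD, n = 3) in dwarf pools and 232 ± 33.4 (SD, n = 3) in normal pools. Without array 3 its mean ratio was 0.067. With an offset of 16 in place of 50 the mean ratio was -0.018 for miR-130a and -0.0017 for miR-130c. On array 2 the normal pool was under the detection limit for both miR-130a and miR-130c, so their ratios on that array rest on a channel near background.

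**Figure D2:**
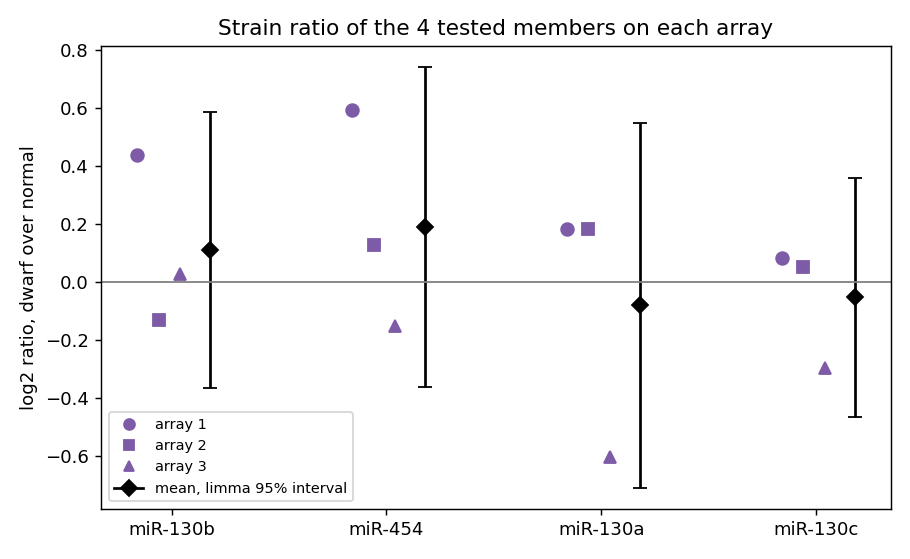
Log2 ratio of dwarf over normal for the 4 tested members, with 1 point for each array and a diamond for the mean with its 95% interval from limma (n = 3 arrays). All 4 intervals span 0, and the points of each member lie on both sides of 0.

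None of the 4 members kept one sign on all 3 arrays, against 41 of 127 or 32.3% of the tested miRNAs. All 4 were above 0 on array 1, 3 of 4 on array 2 and 1 of 4 on array 3, where 44.9%, 51.2% and 39.4% of all tested miRNAs were above 0. The median ratio of the 4 members was 0.31, 0.09 and -0.22 on the 3 arrays and 0.03 for the means, beside -0.05 for all tested miRNAs. The size of their changes was also ordinary, with a median absolute ratio of 0.10 among the members and 0.15 among all tested miRNAs. Arrays differed about as much for the members, with a median SD of 0.34, as for all tested miRNAs, with 0.33.

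**Figure D3:**
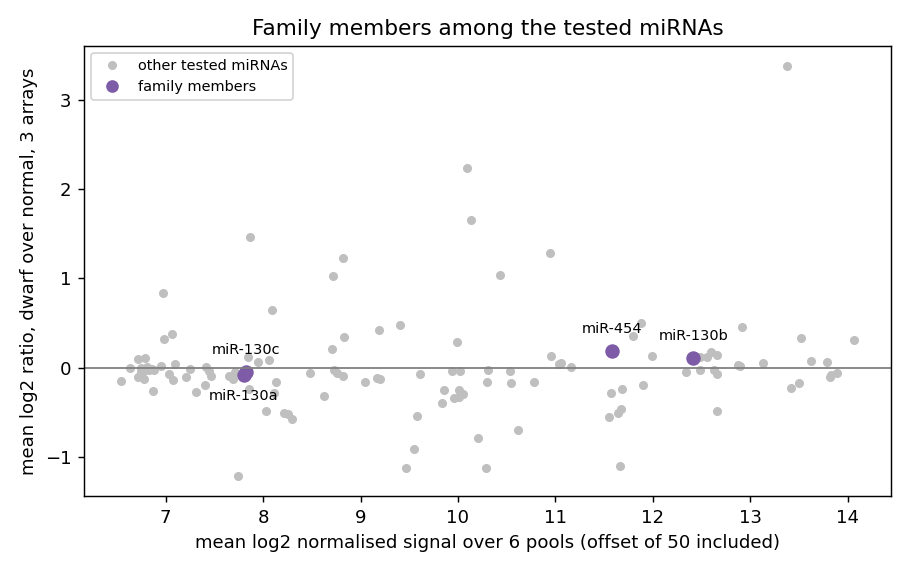
Mean log2 ratio of dwarf over normal (3 arrays) against mean log2 normalised signal over the 6 pools (offset included), for the 127 tested miRNAs, the 4 family members among them in purple and the others in grey. The members lie between -0.08 and 0.19.

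The 6 spots of a member lay closer together within an array than its 3 arrays did. For miR-454, 6 of 6 spots were above 0 on array 1, from 0.44 to 0.76, while 2 of 6 were above 0 on array 3. For miR-130b, 6 of 6 spots were above 0 on array 1 and 1 of 6 on array 2. For miR-130a, 5 of 6 spots were above 0 on arrays 1 and 2, while 6 of 6 were below 0 on array 3, from -0.77 to -0.46. The same held for miR-130c on array 3, where 6 of 6 spots lay from -0.50 to -0.07. The SD between spots ran from 0.094, for miR-454 on array 2, to 0.29, for miR-130a on array 2, and the SD between arrays ran from 0.21 for miR-130c to 0.45 for miR-130a. Spots of one array share RNA, dye and hybridisation and are not replicates of a strain.

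**Figure D4:**
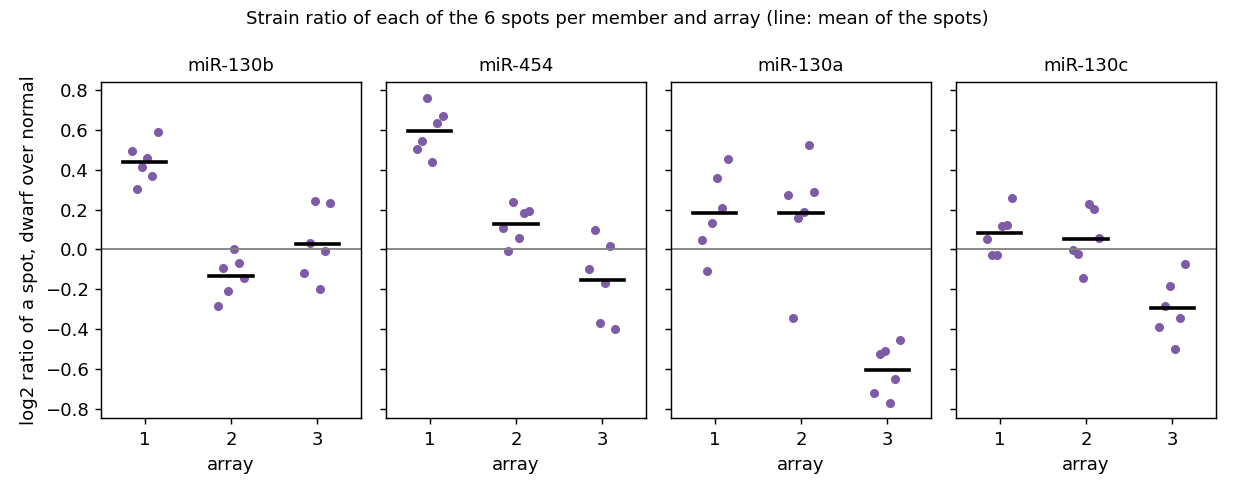
Log2 ratio of dwarf over normal for each of the 6 spots per array of the 4 tested members, with a line at the mean of the spots. On array 3 all 6 spots of gga-miR-130a and of gga-miR-130c lie below 0, and on array 1 all 6 of gga-miR-130b and of gga-miR-454 lie above 0.

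The dye was tested on the same values, as Cy5 over Cy3 after loess. Loess had already removed the average dye difference of each array. The same ratios served for strain, with only the swapped array turned, so this test does not separate dye from strain. limma called 0 of the 4 members and 0 of the 127 tested miRNAs at an adjusted p of 0.05, or 0%, and 12 of the 127 were under 0.05 without adjustment. The dye ratio was -0.20 (SE 0.20) for miR-130a, 0.20 (SE 0.14) for miR-130b, -0.09 (SE 0.14) for miR-130c and 0.10 (SE 0.21) for miR-454. For miR-130b it was above 0 on 3 of 3 arrays, at 0.44, 0.13 and 0.03, so that the sign of its strain ratio turned on the array with swapped dyes.

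Neighbouring or near-identical members were set against each other within each array. The ratio of miR-454 minus that of miR-130b was 0.16, 0.26 and -0.18, with a mean of 0.08 ± 0.23 (SD, n = 3). The ratio of miR-130c minus that of miR-130a was -0.10, -0.13 and 0.31, with a mean of 0.03 ± 0.25 (SD, n = 3). In both pairs the mean difference was smaller than its spread.

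Likeness of profiles was measured as the root mean square difference of log2 normalised signals over the 6 pools, after centring each miRNA on its own mean, so that 0 is an identical profile. The 6 values share arrays and dyes in pairs. Nearest to miR-454 were let-7i, at 0.042, and miR-16c, at 0.16, where the median distance to the tested miRNAs was 0.44. The ratio of let-7i was 0.54, 0.08 and -0.25 on the 3 arrays, beside 0.59, 0.13 and -0.15 for miR-454. Nearest to miR-130b were miR-1767, at 0.14, and miR-1563, at 0.17. Both were dim, with normalised signals of 99.8 to 118 in dwarf pools against 100.3 to 105 in normal pools for miR-1767, and of 112 to 117 in dwarf pools against 100.6 to 118 in normal pools for miR-1563. The offset makes up a large part of such signals and leaves little room for variation, and the part of this in their likeness to miR-130b was not tested.

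The nearest profile to miR-130c was that of miR-301b-3p, its neighbour in the gene table, at 0.080, followed by miR-18b at 0.15. The offset also makes up a large part of the normalised signals of miR-18b, at 106 to 121 in dwarf pools against 100.4 to 124 in normal pools, and of miR-301b-3p. For miR-301b-3p the signal was 99.8 ± 10.4 (SD, n = 3) in dwarf pools and 99.9 ± 9.9 (SD, n = 3) in normal pools. Nearest to miR-130a were miR-30b, at 0.17, and miR-130c, at 0.20. Between members the distance was 0.35 for miR-130b and miR-454, and miR-454 had rank 45 among the tested miRNAs in closeness to miR-130b. These 2 side-by-side miRNAs were thus not among the closest profiles of each other.

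miRNAs whose seed is shifted by 1 base share 6 of the 7 bases with the family. The array held 3 of them, and the bases shared with the family are in capitals.

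gga-miR-19b: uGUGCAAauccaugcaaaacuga

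gga-miR-19a: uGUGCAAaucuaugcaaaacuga

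gga-miR-148a: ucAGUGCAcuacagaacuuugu

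gga-miR-148a, which promotes the differentiation of muscle cells in mouse, had a signal of 731, 3704 and 3371 in the dwarf pools, against 3009, 2142 and 11599 in the normal pools. Its ratio was -0.97, -0.17 and -0.54, lower in dwarf on 3 of 3 arrays. The mean was -0.56 (SE 0.20, limma adjusted p 0.362, unadjusted p 0.0533, n = 3), which did not pass. gga-miR-19b, a member of the miR-17-92 cluster, had a signal of 206, 478 and 289 in the dwarf pools, against 562, 54.0 and 1284 in the normal pools. Its ratio was -0.19, 1.16 and -0.35, with a mean of 0.21 (SE 0.37, limma adjusted p 0.946, n = 3). gga-miR-19a was over 32 in no pool. The 2 tested miRNAs of this list passed in neither direction.

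The tissue label was set against marker miRNAs. Of 7 skeletal muscle miRNAs 6 were over 32 in all 6 pools, and miR-1b was over it in none. The summed signal of these 7 was 14199 to 46692 in dwarf pools against 30235 to 69817 in normal pools. Summed signals are not normalised, and dwarf RNA had Cy5, the dimmer dye, on 2 of 3 arrays. In bulk tissue fewer cells of a type and less RNA per cell cannot be told apart. Of 7 miRNAs of epithelium 1 was over 32 in all pools. The summed signal of the list was 28207 to 50578 in dwarf pools against 276 to 19574 in normal pools. Most of that sum was miR-203, at 43293, 29503 and 25734 in dwarf pools against 10961, 257 and 14021 in normal pools. In these signals before normalisation only the ranges of miR-203 did not overlap between strains, and those of each other miRNA of the list did. The mean ratios of the 6 tested miRNAs of epithelium were all above 0, with a median of 1.56. After normalisation the ratios of miR-200a, miR-200b, miR-429, miR-203 and miR-205a were higher in dwarf on 3 of 3 arrays. They ran from 0.17, for miR-205a on array 3, to 5.62, for miR-203 on array 2. The exception was miR-205b, which was at -0.51 on array 3. limma called 0 of the 6 at an adjusted p of 0.05 and 3 at an unadjusted p under 0.05. miR-183 was over 32 in no pool. Of 2 red blood cell miRNAs 1 was over 32 in all pools. This was miR-451, with a ratio of 0.76, 2.25 and 0.85, higher in dwarf on 3 of 3 arrays, and a mean of 1.28 (SE 0.37, limma adjusted p 0.324, unadjusted p 0.0268, n = 3). The summed signal of the list was 1067 to 5421 in dwarf pools against 514 to 4148 in normal pools, and miR-144 was over 32 in no pool. Of 5 white blood cell miRNAs 2 were tested, with 0 at an unadjusted p under 0.05. Their mean ratios were unlike, at 1.23 for miR-146a and 0.0085 for miR-223, so the median of 0.62 describes neither. The ratio of miR-146a was 2.25, 1.27 and 0.15 on the 3 arrays, higher in dwarf on 3 of 3 (limma adjusted p 0.362, unadjusted p 0.0569). That of miR-223 was -0.20, 0.14 and 0.09. miR-155 was over 32 in 1 dwarf pool and was not tested. The summed signal of these 5 was 445 to 853 in dwarf pools against 53.5 to 1760 in normal pools, and miR-142-3p and miR-142-5p were over 32 in no pool. The endothelial miR-126 had a mean ratio of 0.13 and the cartilage miR-455-5p one of -0.57, neither with an unadjusted p under 0.05. miR-140 of cartilage was over 32 in no pool. The opposite strands of both cartilage miRNAs were tested. miR-455-3p had a ratio of -1.25, -0.24 and -1.24, with a mean of -0.91 (SE 0.27, limma adjusted p 0.324, unadjusted p 0.0298, n = 3). For miR-140* the ratio was -3.48, 2.13 and -2.05, with a mean of -1.13 (SE 1.22, limma adjusted p 0.824, n = 3). Its sign turned on array 2, where dwarf RNA had Cy3, so Cy5 was the lower dye on 3 of 3 arrays. For skeletal muscle the median over 6 tested miRNAs was -0.18, with 1 above and 5 below 0 and 0 at an unadjusted p under 0.05. The part of these cell types in the family's values was not tested.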

How the data were processed

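Leg muscle RNA was hybridised to 3 two-colour miRNA arrays made by LC Sciences after miRBase. The deposited scanner files give the mean intensity of each of 3968 spots per channel (3252 miRNA spots, 424 empty), from a GenePix laser scanner and Array-Pro, with no background subtracted and no normalisation. Commas inside numbers were removed on reading. A table of log2 ratios, which the authors made by background subtraction and LOWESS, was deposited as well. These ran as dwarf over normal when set against the present ratios (Pearson r 0.965, 0.860 and 0.912 over 127 miRNAs), with column medians of 0.04, 0.03 and -0.13. How they were centred is not given in the sources used here, and they served as an alternative only.

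Intensities of all spots were corrected by normexp (offset 50), normalised by loess within each array with controls at weight 0, averaged over 6 spots and turned to dwarf over normal. Normalised signals were taken after Aquantile. limma 3.58.1 in R 4.3.3 (lmFit, eBayes) was fitted on all miRNAs with a mean signal over 32, with Benjamini-Hochberg adjustment, 2 residual and 1.82 prior degrees of freedom. The fit was run on simulated ratios with known changes. The pass condition was that the mean estimate matched the change put in, which says nothing of how many changes 3 arrays would call. No spot-level background is in the columns used, which set the choice of normexp on the intensities. The ratio uses the pairing of pools on an array.

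The members, the marker lists and the tests were chosen with earlier results of these data known. Named miRNAs were the members, the 2 nearest profiles of each tested member, array miRNAs with the seed or the seed shifted by 1 base, and marker miRNAs. The opposite strands, also those of the cartilage miRNAs, were added with their values known. Alternatives covered background, normalisation, spot summary, filter, dye, moderation, the authors' table, leaving out each array, the methods' t-test and separate channels.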

Additional observations from a re-analysis of the deposited data

How the results depend on the processing

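No alternative called a member for strain: the count of members past an adjusted p of 0.05 was 0 in 16 of 16. Among all tested miRNAs that count was 2 with median centring and 3 with the dye coefficient. At an unadjusted p under 0.05, the count of 14 of 127 became 3 without normalization, 6 without moderation and 3 with the methods' t-test. Leaving out each array gave 4 to 18, also of 127. With no filter the count was 31, but of all 542 miRNAs and not of 127. The signs of the members' ratios depended on the setting. miR-130c turned to 0.037 with plain subtraction, 0.029 with loess on detected miRNAs and 0.0098 in the authors' table. miR-130a turned to 0.0011 with loess on detected miRNAs. Without normalization miR-130b was -0.29, miR-454 -0.23 and the median of the members -0.45, where the median of all tested miRNAs was -0.50 in place of -0.05. Leaving out each array gave -0.21 to 0.18 for miR-130a, -0.052 to 0.23 for miR-130b, -0.12 to 0.067 for miR-130c and -0.013 to 0.36 for miR-454. Without normalization the dye ratio was -1.39 (SE 0.35) for miR-130a, -0.79 (SE 0.29) for miR-130b, -1.30 (SE 0.32) for miR-130c and -0.96 (SE 0.32) for miR-454. Each of these passed for dye, with limma adjusted p-values of 0.012, 0.038, 0.012 and 0.026 in that order. The median signal of all tested miRNAs was also lower in Cy5 on every array, at 301, 181.8 and 642 against 938, 599 and 2600 in Cy3. A lower Cy5 signal was thus not particular to the members. Without each array the dye ratio after loess ran from -0.39 to -6.9e-05 for miR-130a, from 0.080 to 0.28 for miR-130b, from -0.17 to 0.015 for miR-130c and from -0.14 to 0.23 for miR-454. With array 2 left out, dwarf was Cy5 on every array, so dye ratio and strain ratio were the same value. The cause of these shifts was not tested. Of the 30 channels of the 5 members 22 were over the limit of 32, and 14 to 16 of 20 without each array. Among all 542 miRNAs, 90 to 142 were over it in a channel. Separate channels with no replicate block changed no member's call, with a standard error of 0.31 for miR-130a. Signal over background left miR-301 without a ratio, and it limits miR-130a and miR-130c in the normal pool of array 2.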
